A study of Mus musculus with 6 samples.

Results

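The Rhox genes are a family of homeobox genes that lie side by side on the mouse X chromosome. Every gene symbol made of Rhox and a digit was taken from the expression tables of a testis RNA-seq study, whatever its level, which gave 31 of 25165 symbols. They were divided into Rhox5 and Rhox8, the 2 members known from the Sertoli cells that nurse the germ cells, and the other 29, here called the germ-cell members. By the usual numbering, 22 belong to the alpha subcluster (Rhox1 to Rhox4), 5 to the beta subcluster (Rhox5 to Rhox9) and 4 to the gamma subcluster (Rhox10 to Rhox13). The study deleted Teshl, a testis lncRNA (a long transcript that encodes no protein) that the tables list as 1700027A15Rik. Whole testes of C57BL/6 mice aged 8 weeks were sequenced in 6 libraries, of which 3 are titled KO and 3 WT. The labels contradict themselves, since their genotype field gives wild type for the libraries titled KO and homozygous loss of the lncRNA for those titled WT. Libraries were grouped by title, each difference is titled KO minus titled WT, and the labels do not say whether the libraries of a group come from separate animals. The p-values therefore reflect how these libraries vary, and that variation may be technical.

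Rhox proteins are homeodomain transcription factors, found mainly in the testis, epididymis, ovary and placenta. Rhox5, first described as Pem, is the best known: it is driven by androgen in Sertoli cells and its loss lowers sperm output. Rhox10 is known for its part in founding the spermatogonial stem cells, Rhox13 for its protein in differentiating germ cells, and the Rhox4, Rhox6 and Rhox9 genes mainly for embryonic stem cells and placenta. DNA methylation is known to keep many members silent in tissues where they are not used.

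The targeted gene and the libraries were examined first. The level of 1700027A15Rik was 0.385 FPKM (fragments scaled to transcript length and library depth) in titled KO replicate 1 and listed at 0 in replicates 2 and 3. It was 1028, 989 and 1081 FPKM in the libraries titled WT, so its level follows the titles, not the genotype field. Library totals lay between 393622 and 413604 FPKM. Depth was estimated at 27700000 to 38900000 fragments, from a peak among low values multiplied by transcript length, which was taken to be 1 fragment. At that depth 3 fragments on a transcript of 1 kb equal 0.077 to 0.108 FPKM, a limit that covers counting error only.

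The 31 genes span 916 kb of the X chromosome, from 37213804 to 38129967 of GRCm38 (the assembly also called mm10), in GENCODE M21. Many are recent duplicates, and the homeobox shows how near they are. Below are 42 bases of spliced coding sequence from the homeobox, for the 2 Sertoli members, the gamma members Rhox11 and Rhox13, and Rhox3a; the capitals mark the codon of the residue that is asparagine in nearly all homeodomains and contacts DNA. The stretch crosses an exon junction in each gene, so the GRCm38 span given with it holds an intron; the strand is plus for Rhox5, Rhox13 and Rhox3a and minus for Rhox8 and Rhox11.
Rhox5 (chrX:37806105-37808641): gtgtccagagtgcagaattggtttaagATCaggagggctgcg
Rhox8 (chrX:37874977-37876237): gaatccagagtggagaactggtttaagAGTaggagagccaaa
Rhox11 (chrX:38076809-38080429): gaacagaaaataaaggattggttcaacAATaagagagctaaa
Rhox13 (chrX:38123105-38129768): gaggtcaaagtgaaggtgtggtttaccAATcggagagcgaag
Rhox3a (chrX:37257586-37258774): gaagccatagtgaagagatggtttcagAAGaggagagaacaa
Rhox11 and Rhox13 were the 2 members with an asparagine codon at that place. It encodes lysine in 23 members, Rhox3a among them, isoleucine in Rhox5 and serine in Rhox8. Rhox3c, Rhox3e, Rhox3g and Rhox3h had the same 42 bases as Rhox3a, and Rhox3f differed from it at 1 base. Rhox5 differed from Rhox3a at 16 of these bases and from Rhox8 at 11.

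How far the transcripts differ was measured as the share of 50-base windows of the longest GENCODE transcript that occur in no other gene. The 50 bases were a fixed setting not taken from the libraries, so the share is only a guide to what their reads can tell apart. It was 100% for Rhox1, Rhox5, Rhox10, Rhox11, Rhox12 and Rhox13, 90.1% for Rhox8 and 95.3% for Rhox9. In Rhox3a it was 3.29%, in Rhox3e 9.96%, in Rhox3c 23.5% and in Rhox3h 31.9%, and in Rhox2e it was 0%. In 21 of the 31 members more than 50% of the windows were shared, most with copies of the same number. Values of single Rhox2, Rhox3 and Rhox4 copies are therefore uncertain, because how the authors divided shared reads is not stated, and family sums are given beside them.

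**Figure D1:**
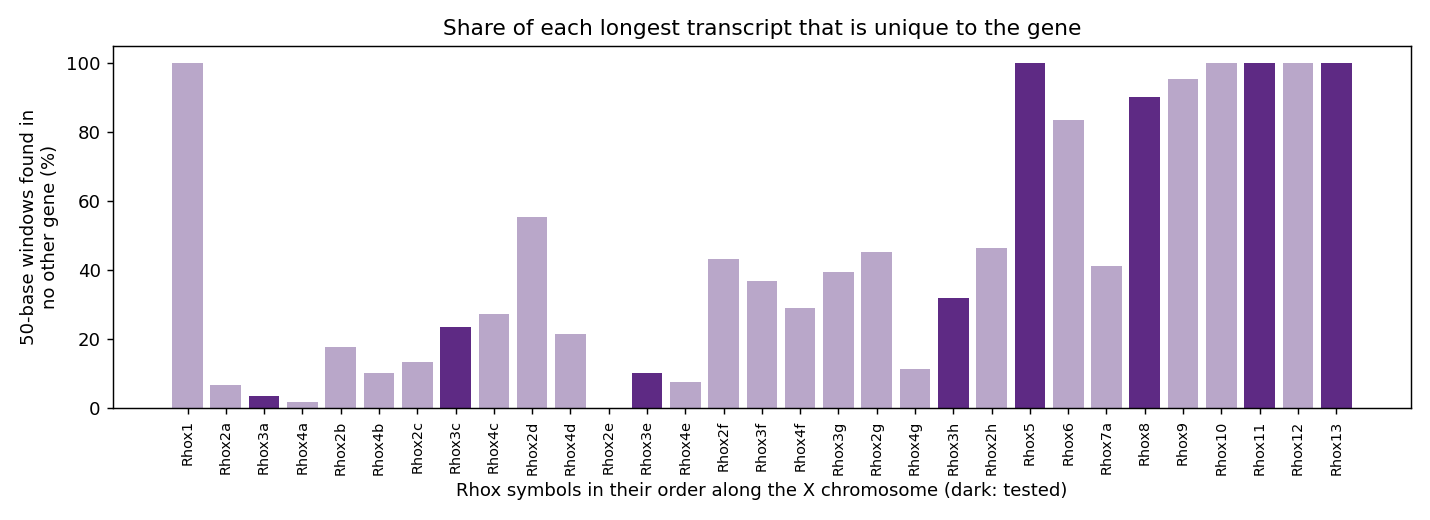
Percentage of 50-base windows of each longest transcript found in no other gene (vertical axis), for the 31 Rhox symbols in their order along the chromosome; dark bars are the 8 tested genes. Rhox5, Rhox11 and Rhox13 reach 100% and Rhox8 90.1%, while the tested Rhox3 copies lie between 3.29% and 31.9%.

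Levels differed widely within the cluster. Rhox8 was the highest, then Rhox5, then Rhox11, and FPKM is scaled to transcript length, so these levels can be set side by side. The lowest value of Rhox8 (10.8 FPKM) lay above the highest of Rhox5 (10.1 FPKM), whose lowest (7.80 FPKM) lay above the highest of Rhox11 (5.18 FPKM). Below these came Rhox3e, Rhox13, Rhox3c, Rhox3a and Rhox3h, neighbours in an order in which the library values overlapped. In 8 members the mean of either group reached 1 FPKM, and these were tested with limma on log2(FPKM + 1). Of the other 23, 11 had a mean of 0.1 FPKM or more over all libraries and 12 a lower mean. The symbols above 0 in every library numbered 17.

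**Figure D2:**
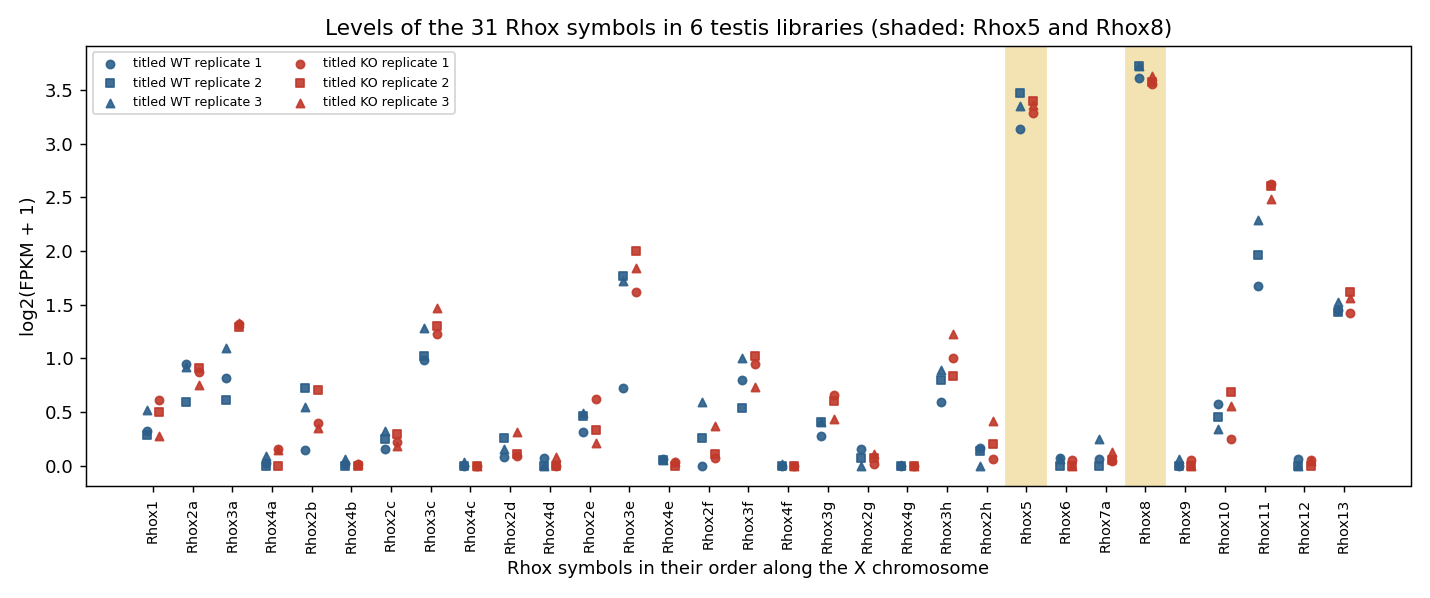
Level of each of the 31 Rhox symbols as log2(FPKM + 1) (vertical axis) in their order along the X chromosome; each point is a library, blue for titled WT and red for titled KO, with the replicate given by the symbol. Rhox5 and Rhox8 (shaded) stand above the rest in every library, Rhox11 follows, and the Rhox4 copies lie near 0.

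None of the 8 tested members passed the limma threshold (Benjamini-Hochberg FDR of 0.05 over 12952 genes) in either direction. Over all tested genes 1.15% were called and 0.788% were called higher in the libraries titled KO; of the 527 tested X genes 14.2% were called higher. At an unadjusted p under 0.05, 4 members had higher values in titled KO (Rhox11, Rhox3a, Rhox3c and Rhox3h) and 0 lower, against 5.38% of all tested genes and 32.1% of X genes with higher values at that level. Of these, Rhox3a and Rhox3h entered the test only through their level in titled KO, so the count is no support for a difference. In 2 of the 8, Rhox11 and Rhox3a, the 3 libraries of one group lay apart from the 3 of the other, both higher in titled KO. Of all tested genes 21.7% were separated like this in either direction, 5.92% with titled KO higher, and of the X genes 33.4% were separated with titled KO higher.

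The Sertoli member Rhox5 gave 8.77, 9.57 and 9.31 FPKM in the libraries titled KO and 7.80, 10.1 and 9.25 FPKM in those titled WT. The groups overlapped, with the highest and the lowest value both in titled WT. The log2 fold change was 0.03 (SE 0.09, 95% interval -0.16 to 0.23, limma adjusted p = 0.876). Without titled WT replicate 1, where Rhox5 was lowest, it was -0.06 (limma adjusted p = 0.654).

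Rhox8, the second Sertoli member, gave 10.8, 10.9 and 11.4 FPKM in titled KO and 11.3, 12.2 and 12.2 FPKM in titled WT. The highest library titled KO lay just above the lowest titled WT, so the groups overlapped. The log2 fold change was -0.10 (SE 0.06, 95% interval -0.24 to 0.03, limma adjusted p = 0.440). Both intervals lie within 0.25 of 0 on the log2 scale. Here and for every member, a lower level in whole testis may mean fewer cells of a type or less RNA per cell, which cannot be told apart.

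Both genes were therefore also read against 13 Sertoli markers. Of the 12 markers tested 0 were called, with a median log2 fold change of -0.07 where all tested genes had -0.04 (limma; at an unadjusted p under 0.05, 1 lower and 0 higher). The marker levels summed to 1189 to 1277 FPKM in titled KO and 1208 to 1348 FPKM in titled WT, with Tuba3a, a tubulin gene (log2 fold change -0.06, limma adjusted p = 0.643), and Clu, which encodes clusterin (-0.09, limma adjusted p = 0.510), highest. No marker was listed at 0, and Fshr, the receptor for follicle-stimulating hormone, was lowest. It gave 0.463 to 0.596 FPKM in titled KO and 0.745 to 1.08 FPKM in titled WT, without overlap. Inha, the marker lower at that unadjusted p, did not overlap either, at 30.2 to 30.9 and 33.4 to 38.8 FPKM. In every other Sertoli marker the groups overlapped. Of all tested genes 21.7% were separated in either direction. As the log2 level minus the mean log2 level of the markers, Rhox5 was at -1.50, -1.41 and -1.50 in titled KO and -1.70, -1.46 and -1.61 in titled WT. The difference was 0.12 (exact two-sided permutation test, p = 0.3, where 3 against 3 libraries allow no p under 0.1), and the groups overlapped. With titled WT replicate 1 left out it was 0.069, and with replicate 2 of that group left out 0.188. Rhox8 was at -1.23, -1.23 and -1.24 in titled KO and -1.22, -1.21 and -1.25 in titled WT, a difference of -0.0092 (exact two-sided permutation test, p = 0.5). It was -0.00089 with titled WT replicate 2 left out and -0.019 with replicate 3 of that group left out. Relative to the markers, Rhox8 had an SD of 0.0034 over the libraries titled KO and 0.019 over those titled WT.

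Rhox11, a gamma member, was the highest of the germ-cell members. It gave 5.18, 5.10 and 4.61 FPKM in titled KO and 2.20, 2.89 and 3.89 FPKM in titled WT. Every library titled KO lay above every library titled WT, and the titled WT libraries were spread more widely (SD 0.8505 against 0.3054 FPKM, n = 3). The means, 4.96 and 2.996 FPKM, differ 1.66-fold, and the log2 fold change was 0.60 (SE 0.14, 95% interval 0.27 to 0.92). It did not pass (limma adjusted p = 0.119; unadjusted p = 0.00284). Without titled WT replicate 3, the titled WT library nearest to those titled KO, it passed (log2 fold change 0.76, limma adjusted p = 0.00250), and over all alternatives the adjusted p ran from 0.00250 to 0.378. Its log2 fold change stood at percentile 99.2 of all tested genes and at percentile 89.6 of the tested X genes. By the depths above, Rhox11 rested on about 134 to 149 fragments in the libraries titled KO and 49.4 to 100.4 in those titled WT.

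Rhox13, the other tested gamma member, gave 1.68, 2.08 and 1.95 FPKM in titled KO and 1.74, 1.71 and 1.87 FPKM in titled WT. The groups overlapped, and the log2 fold change of 0.06 (SE 0.08) did not pass (limma adjusted p = 0.697). Rhox10 lay under the level for testing, at 0.187, 0.614 and 0.471 FPKM in titled KO and 0.490, 0.373 and 0.268 FPKM in titled WT, and overlapped as well. Rhox12 was at or under 0.0460 FPKM everywhere and listed at 0 in 3 libraries.

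The 6 Rhox3 genes were the most abundant of the copied families. Their sum was 7.42, 8.25 and 8.21 FPKM in titled KO and 3.84, 5.47 and 7.07 FPKM in titled WT. The groups did not overlap, and titled WT replicate 3 came nearest to the libraries titled KO, as it did for Rhox11. The means were 7.96 ± 0.472 and 5.46 ± 1.61 FPKM (SD, n = 3), a ratio of 1.46. The sum is less affected than single copies by how reads were divided among the 6. It still depends on reads shared with Rhox2c, Rhox3a2 and Rhox3 pseudogenes, and it was not tested.

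Within that family, Rhox3a gave 1.498, 1.455 and 1.508 FPKM in titled KO and 0.760, 0.530 and 1.14 FPKM in titled WT. The groups lay apart, and the 3 libraries titled KO were nearly equal. The log2 fold change was 0.47 (SE 0.11, 95% interval 0.22 to 0.73) and did not pass (limma adjusted p = 0.106). Without titled WT replicate 3 it passed (log2 fold change 0.60, limma adjusted p = 0.00797), and over all alternatives the adjusted p ran from 0.00797 to 0.305. Its mean was under 1 FPKM in titled WT, and 94.1% of its windows also occur in Rhox3a2, a GENCODE gene that is not among the symbols of the tables.

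The other tested copies were less clear. Rhox3c gave 1.34, 1.46 and 1.78 FPKM in titled KO and 0.973, 1.03 and 1.43 FPKM in titled WT (log2 fold change 0.24, SE 0.10, limma adjusted p = 0.325). Rhox3h gave 1.0, 0.789 and 1.34 FPKM in titled KO and 0.512, 0.736 and 0.861 FPKM in titled WT (log2 fold change 0.26, SE 0.11, limma adjusted p = 0.346). In both genes the groups overlapped by a single library on each side. Rhox3e, summed over 3 rows of the same symbol, gave 2.06, 3.001 and 2.58 FPKM in titled KO and 0.647, 2.40 and 2.30 FPKM in titled WT (log2 fold change 0.42, SE 0.32, limma adjusted p = 0.563). Here titled WT replicate 1 stood far below the rest, and without it the log2 fold change was 0.07 (limma adjusted p = 0.736). Rhox3g, under the level for testing, gave 0.582, 0.516 and 0.348 FPKM in titled KO and 0.210, 0.330 and 0.325 FPKM in titled WT, without overlap. Rhox3f gave 0.926, 1.03 and 0.661 FPKM in titled KO and 0.740, 0.448 and 1.01 FPKM in titled WT, with overlap.

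**Figure D3:**
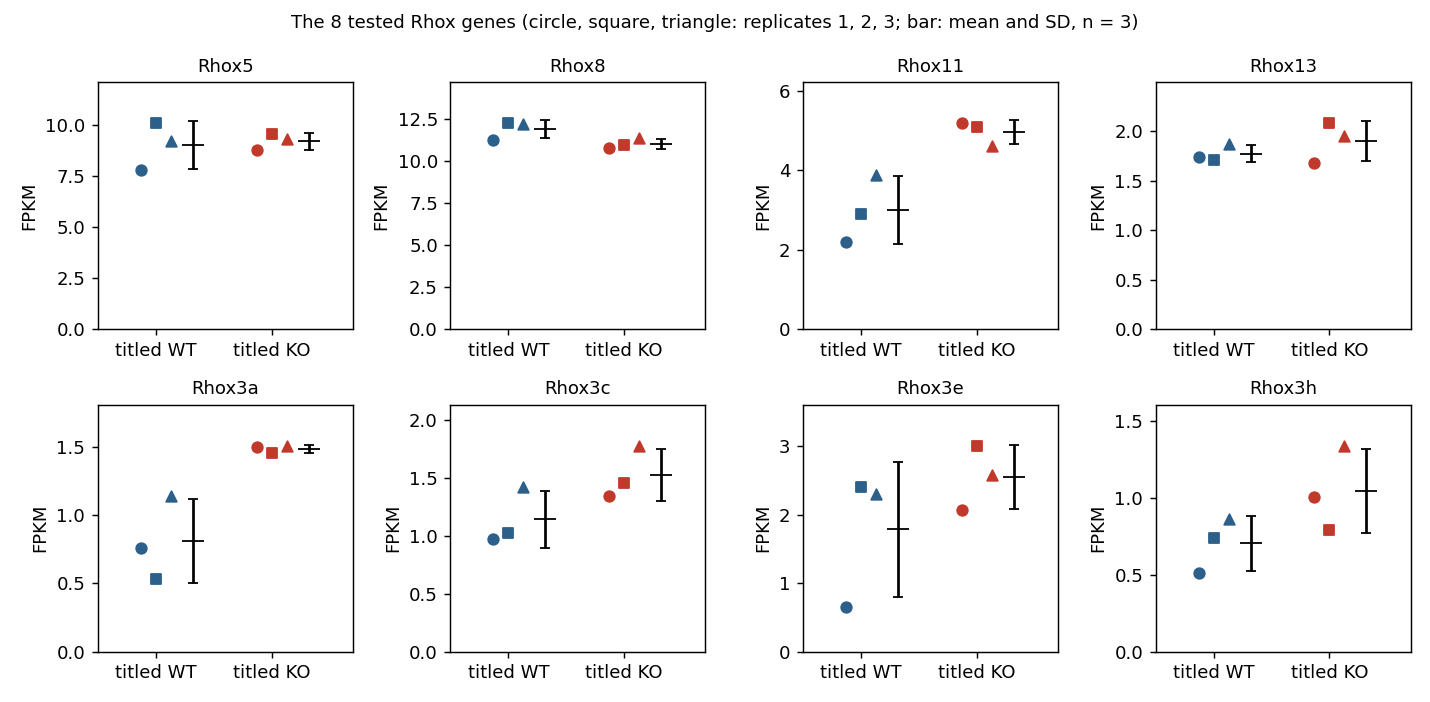
FPKM (vertical axis, from 0) of the 8 tested Rhox genes in the 3 libraries titled WT (blue) and the 3 titled KO (red), with the mean and SD of each group (n = 3). Rhox11 and Rhox3a are the 2 panels in which the groups do not overlap, and in both the highest library titled WT is replicate 3.

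The 8 Rhox2 copies showed no such split. Their sum was 2.03, 2.33 and 2.19 FPKM in titled KO and 1.68, 2.27 and 2.63 FPKM in titled WT, a ratio of 0.997. The highest copy was Rhox2a, at 0.680 to 0.874 FPKM in titled KO and 0.513 to 0.925 FPKM in titled WT. Rhox1, with a transcript of its own, gave 0.533, 0.417 and 0.209 FPKM in titled KO and 0.249, 0.216 and 0.434 FPKM in titled WT.

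The members best known from placenta and stem cells were close to 0. The 7 Rhox4 copies summed to 0.148, 0 and 0.205 FPKM in titled KO and 0.122, 0.0377 and 0.179 FPKM in titled WT. Rhox4c, Rhox4f and Rhox4g were above 0 in titled WT replicate 3 alone and listed at 0 in the other 5 libraries. Rhox4e was the one member whose libraries titled KO all lay below those titled WT (0.0222, 0 and 0.0273 FPKM against 0.0434, 0.0377 and 0.0378 FPKM), at no more than 2.2 fragments a library. Rhox6 and Rhox9 did not exceed 0.0511 FPKM in any library, and Rhox7a did not exceed 0.188 FPKM.

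Summed over the cluster, Rhox RNA came to 36.8, 39.4 and 38.6 FPKM in titled KO and 29.5, 35.3 and 38.1 FPKM in titled WT, which overlap. The 29 germ-cell members summed to 17.3, 18.8 and 18.0 FPKM in titled KO and 10.5, 12.97 and 16.6 FPKM in titled WT, and the groups did not overlap. Without Rhox11 these sums were 12.1, 13.7 and 13.4 FPKM and 8.26, 10.1 and 12.7 FPKM, and the groups overlapped. The sum over all 1097 X symbols, Rhox included, lay apart as well, at 8407 to 9110 FPKM in titled KO and 6113 to 6806 FPKM in titled WT. Lying apart is therefore not particular to the germ-cell or the Rhox3 sum. With each of 3 other scalings (median of ratios, upper quartile, equal totals) the germ-cell and Rhox3 sums still did not overlap. The sum over all members then lay apart too, at 37.4 FPKM or more in titled KO and 37.3 FPKM or less in titled WT, and the sum without Rhox11 lay apart with the first 2 of these scalings. Rhox5 and Rhox8 together summed to 19.5, 20.5 and 20.7 FPKM in titled KO and 19.1, 22.3 and 21.5 FPKM in titled WT. They made up 52.1% to 53.5% of the Rhox sum in titled KO and 56.3% to 64.6% in titled WT. Titled WT replicate 1 had the lowest and replicate 3 the highest germ-cell sum of its group. The subcluster sums were 10.7 and 8.07 FPKM for alpha (mean of titled KO and of titled WT), 20.3 and 21.1 FPKM for beta and 7.31 and 5.16 FPKM for gamma.

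**Figure D4:**
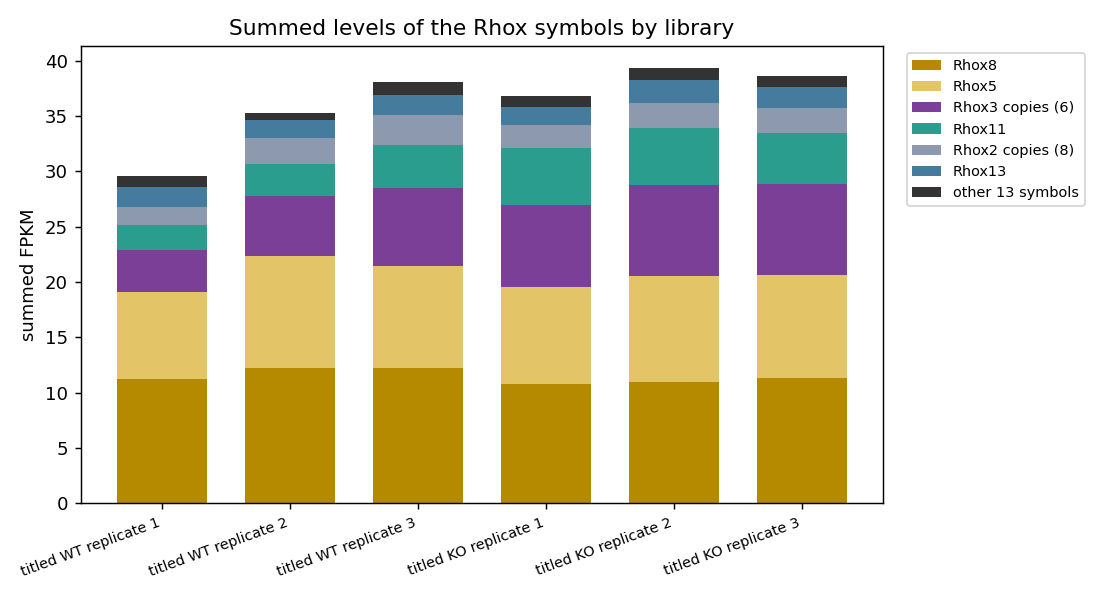
Summed FPKM of the Rhox symbols (vertical axis, from 0) in each of the 6 libraries, stacked by gene or family. The Rhox5 and Rhox8 layers lie between 19.1 and 22.3 FPKM together, while the Rhox3 and Rhox11 layers are thinnest in titled WT replicate 1 and thickest in the libraries titled KO.

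Germ-cell stage markers were read beside the germ-cell Rhox sum, and limma called 0 members in each of the 4 lists. The 5 elongating spermatid markers, the protamine genes Prm1 and Prm2 highest among them, summed to 30980 to 33016 FPKM in titled KO and 25893 to 29704 FPKM in titled WT, without overlap. Of these 3 of 5 had higher values in titled KO at an unadjusted p under 0.05, against 5.38% of all tested genes. Those 3 were Prm1, Prm2 and Tnp2, which made up most of the sum. Tnp1 overlapped, at 5159 to 5600 FPKM in titled KO and 4718 to 5617 FPKM in titled WT. Odf1 overlapped too, with a log2 fold change of -0.035. Prm1 and Prm2 passed with equal library totals (limma adjusted p = 0.0202 and 0.0395) and without titled WT replicate 3 (0.0115 and 0.0267), the library whose omission also let Rhox11 and Rhox3a pass. That omission raised the genes called over the whole table from 149 to 233, so passing there is not particular to these genes. The 7 spermatogonia markers were highest in Uchl1 and Dmrt1. Their sum lay the other way, at 36.6 to 42.3 FPKM in titled KO and 43.9 to 51.5 FPKM in titled WT. Of the 5 tested, 2 had lower values at an unadjusted p under 0.05 and 0 higher. Of all tested genes 8.89% had lower values at that level. Those 2 were Uchl1, which made up most of the sum, and Kit, whose groups lay only just apart. In every other marker of this list the groups overlapped, so the lower sum does not stand for the list as a whole. Of all tested genes the groups lay apart in 21.7% in either direction, and in 5.92% with titled KO higher. Uchl1, a ubiquitin hydrolase of spermatogonia, passed with equal library totals (log2 fold change -0.39, limma adjusted p = 0.0483). The 5 round spermatid markers, Tssk2 and Acrv1 highest, overlapped at 718 to 863 FPKM in titled KO and 680 to 803 FPKM in titled WT, as did the 6 spermatocyte markers, Sycp3 and Ccna1 highest, at 370.2 to 388 and 372 to 395 FPKM. In both lists 0 members differed at an unadjusted p under 0.05, and no marker of the 4 lists was listed at 0. The part of these markers in the Rhox values was not tested.

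For markers of other cells the list sums overlapped between the groups, and limma called 0 of the markers. The 5 Leydig markers, Insl3 and Cyp17a1 highest, summed to 1469 to 1715 FPKM in titled KO and 1645 to 1707 FPKM in titled WT. At an unadjusted p under 0.05 they had 1 lower member and 0 higher, where 8.89% of all tested genes were lower. The lower member, Hsd3b1, did not overlap, at 19.5 to 24.1 FPKM in titled KO and 25.3 to 28.7 FPKM in titled WT. For the 4 peritubular markers, Acta2 and Tagln highest, the sums were 24.1 to 30.02 and 25.3 to 36.7 FPKM, also with 1 lower and 0 higher at that unadjusted p. For the 4 macrophage markers, C1qa and Csf1r highest, they were 8.99 to 10.7 and 9.93 to 12.4 FPKM, with 0 on either side. Epididymis, the organ in which Rhox5 is also strongly used, was looked for with 5 markers. Lcn5 and Adam7 were listed at 0 in all libraries, Lcn8 was above 0 in 1 library, and Crisp1 did not exceed 0.0765 FPKM. Cst8 alone was high, at 226 to 287 FPKM. With the other markers at or near 0, its level was not taken as a sign of epididymis.

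Genes that act on Rhox promoters, or are known to share regulation or act downstream, were taken from lists. Of 12 regulators (the androgen receptor, GATA and ETS factors, DNA methyltransferases and their partners), 11 were tested and 0 called by limma. At an unadjusted p under 0.05, 2 were lower and 0 higher, where 8.89% of all tested genes were lower and 5.38% higher. Those 2 were Kdm1a and Gata1, and in both the groups lay apart. Gata1 gave 3.08 to 3.40 FPKM in titled KO and 3.78 to 4.50 FPKM in titled WT (log2 fold change -0.25, limma adjusted p = 0.192). The median log2 fold change of the 11 was -0.09. The highest regulators were Kdm1a, a histone demethylase (log2 fold change -0.18, limma adjusted p = 0.319), and Uhrf1, which recruits the maintenance DNA methyltransferase (log2 fold change -0.09, limma adjusted p = 0.511). Of 7 androgen-responsive Sertoli genes 0 were called by limma, with a single gene on each side at an unadjusted p under 0.05 and a median log2 fold change of -0.09. The log2 fold change of Tsx, an X-linked Sertoli gene, was -0.13 (limma adjusted p = 0.411), and that of Eppin, an epididymal and testicular protease inhibitor, was -0.09 (limma adjusted p = 0.658). Of 5 genes reported downstream of Rhox5 only Adipor2, an adiponectin receptor, was high enough to test (log2 fold change -0.15, limma adjusted p = 0.400). Pparg, Gdap1, Ins2 and Unc5c were under the level for testing, and Unc5c, a netrin receptor known to be repressed by Rhox5, was at 0.0536 to 0.0712 FPKM.

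The surroundings of the cluster were compared in the same fit. Within 1 Mb of its ends lie 30 other symbols, of which 19 were tested, 3 were higher in titled KO and 0 lower. The share is close to the 14.2% of all tested X genes, so the count shows nothing particular to the neighbourhood. Akap14, which encodes an anchoring protein for protein kinase A, ends 44962 bp before the cluster. It gave 9.57, 10.9 and 9.24 FPKM in titled KO and 7.30, 6.62 and 6.70 FPKM in titled WT (log2 fold change 0.47, limma adjusted p = 0.0188). Upf3b, a factor of nonsense-mediated RNA decay 103482 bp before the cluster, gave 4.89, 4.74 and 4.62 FPKM in titled KO and 3.07, 3.66 and 3.55 FPKM in titled WT (log2 fold change 0.38, limma adjusted p = 0.0451). Gm6268, 809149 bp before it, had means of 6.49 and 2.63 FPKM (log2 fold change 1.04, limma adjusted p = 0.0136).

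In each of the 3 genes every library titled KO lay above every library titled WT, as in 33.4% of the tested X genes. The 3 were picked by their calls, so this adds no support. Their calls were lost in 4 (Akap14), 9 (Upf3b) and 3 (Gm6268) of 16 alternative settings, with a limma adjusted p of 0.0528 to 0.159 there. Leaving out titled KO replicate 2 or titled WT replicate 2 ended the call of Akap14 (limma adjusted p = 0.0610 and 0.0664). Leaving out titled KO replicate 3 or titled WT replicate 2 ended that of Gm6268 (0.0528 and 0.0650). Upf3b was lost without any single library except titled WT replicate 3 (0.0673 to 0.141). The nearest tested genes on each side were Gm9, 2763 bp before the cluster (log2 fold change 0.20, limma adjusted p = 0.384), and Tmem255a, 66606 bp after it (log2 fold change -0.13, limma adjusted p = 0.372).

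**Figure D5:**
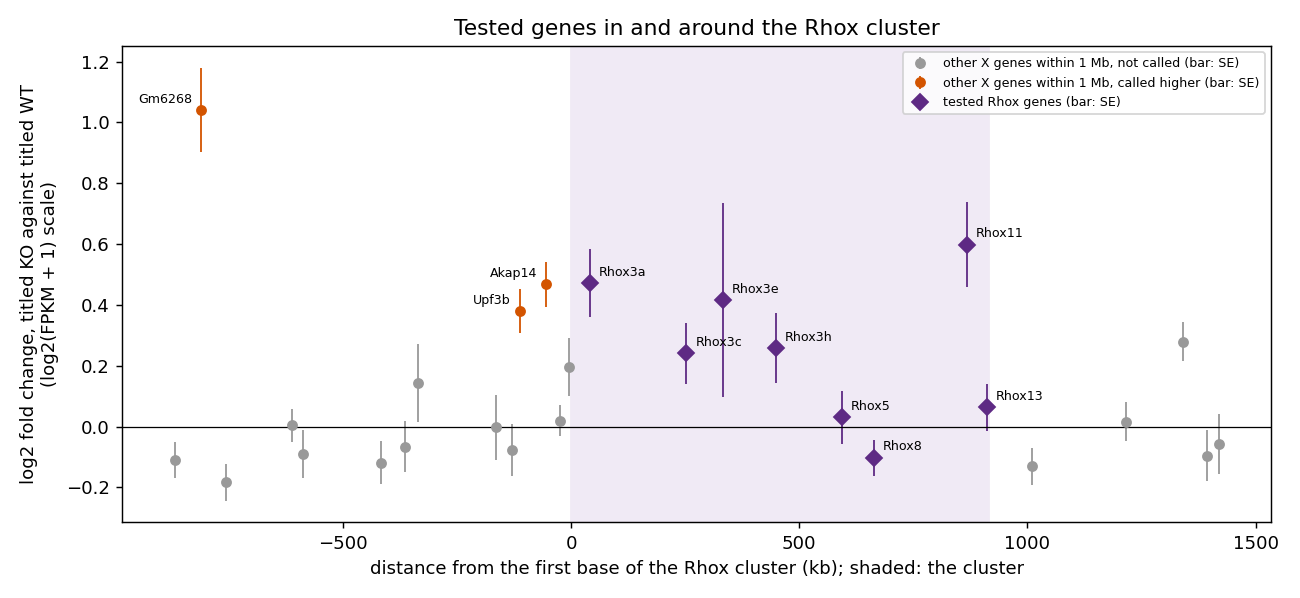
Log2 fold change of titled KO against titled WT on the log2(FPKM + 1) scale (vertical axis) for tested genes by distance from the first base of the Rhox cluster in kb (horizontal axis); bars are standard errors, diamonds Rhox genes, orange points the 3 called neighbours. Rhox11 (0.60) and Rhox3a (0.47) are the highest Rhox points, at opposite ends of the shaded cluster, and Rhox5 and Rhox8 lie near 0 between them.

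Upstream sequence was read for the 2 members whose tested levels lay apart, since they sit at opposite ends of the cluster. RefSeq tables for GRCm38.p6 gave a start for 25 of the 31 members, and not for Rhox8. The start lies 4956, 11283 and 50234 bp from the GENCODE start for Rhox3e, Rhox3c and Rhox5, so those windows do not adjoin the GENCODE starts. For Rhox3g, Rhox13 and Rhox3f the distance is 473, 379 and 360 bp, also more than the 250 bases read. Shown are the 250 bases before the start of Rhox3a (chrX:37249669-37249918, plus strand) and of Rhox11 (chrX:38085140-38085389, minus strand). Capitals mark the letters TGTTCT or their reverse complement AGAACA, the half-site of the androgen receptor, searched on both strands.
Rhox3a: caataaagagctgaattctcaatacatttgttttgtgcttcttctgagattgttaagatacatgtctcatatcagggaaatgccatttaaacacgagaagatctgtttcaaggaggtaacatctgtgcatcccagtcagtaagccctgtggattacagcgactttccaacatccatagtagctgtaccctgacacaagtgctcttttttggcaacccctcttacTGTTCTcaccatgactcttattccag
Rhox11: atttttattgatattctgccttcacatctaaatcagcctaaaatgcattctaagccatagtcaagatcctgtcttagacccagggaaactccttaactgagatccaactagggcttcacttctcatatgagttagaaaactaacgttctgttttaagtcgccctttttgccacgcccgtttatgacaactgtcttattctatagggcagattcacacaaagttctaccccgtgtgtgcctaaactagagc
The upstream window of Rhox3h is the same as that of Rhox3a in all 250 bases. Neither gene passed, and 57.6% of the transcript windows of Rhox3h also occur in Rhox3a, so reads may separate the 2 copies poorly. Whether upstream sequence bears on the levels was not tested. The Rhox11 window holds no match. Set side by side without alignment, it differs from that of Rhox3a at 180 of the 250 positions. Apart from Rhox3h, the Rhox windows ran from 173 to 198 in this count, so the 180 does not single out Rhox11. The half-site letters were found in 8 of the 25 Rhox windows and in 16.1% of all 32851 windows of that length, the Rhox windows included. Near copies share a window's letters, and the distant Rhox5 and Rhox13 windows are among the 8. TGACG, the half-site of cAMP-responsive factors, or its complement CGTCA was found in 0 of 25 Rhox windows and 17.8% of all. GATA or its complement TATC was found in 23 of 25 and in 53.6% of all. Near copies share letters here too, as among the Rhox2 and Rhox4 windows, so the 25 windows are not independent. All of these are matches of letters in a window and show neither binding nor its absence.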

How the data were processed

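Total RNA from testis was made into libraries with a directional kit, per the labels' protocols, and aligned to mm10 with HISAT2, per the submitters' processing notes, which give no version. The authors deposited 1 table of symbols and FPKM values per library; the unit was read from the values, and which quantifier, annotation and strand setting were used is not stated. Rows were summed per symbol. Zeros are reported as listed, since a zero can be a failed estimate.

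Values were tested as log2(FPKM + 1), a scale that understates changes of low genes, with limma (version 3.58.1, R 4.3.3) using an intensity trend and robust variance moderation. The 12952 genes whose mean reached 1 FPKM in either group were tested, and p-values were adjusted by Benjamini-Hochberg over all of them. The script was tested on simulated data. Positions and transcripts are from GENCODE M21, upstream windows from RefSeq (GRCm38.p6). Figures were drawn with matplotlib 3.10.9. The members and gene lists were chosen with earlier results of these data known. Genes were named by rule: the target, every Rhox member, of each list the called members or else the 2 highest, and of the neighbours those called and the nearest on each side. Fshr, the remaining epididymis markers and the remaining genes downstream of Rhox5 were named outside it, after their values were seen. So were Inha, Hsd3b1, Gata1, Kit, Tnp1, Tnp2 and Odf1. Alternatives were 2 other pseudocounts, 2 other filters, 3 scalings, moderation that is not robust, the replicate number as a block, symbols on a single row and each library left out. The rescaling of sums over members was added after the data were seen.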

Additional observations from a re-analysis of the deposited data

How the results depend on the processing

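Of the 8 tested Rhox members, 0 passed under every alternative except one: the count ranged from 0 to 2 when single libraries were left out, the 2 being Rhox11 and Rhox3a without titled WT replicate 3. Without a filter all 31 were fitted and 0 passed. The number of genes called over the whole table was 149, and it was 88 without a filter, 50 with the replicate number as a block, and 73 to 233 with single libraries left out. The replicate numbers did not pair the libraries (correlations of deviations for the same number were 0.0647, -0.129 and 0.0614); with the block the smallest Rhox limma adjusted p was 0.175, and the calls of Gm6268, Akap14 and Upf3b were lost (0.0693, 0.0952 and 0.159). Without a filter the limma adjusted p was 0.0607 for Akap14 and 0.0965 for Upf3b. Relative to the Sertoli markers, the Rhox8 difference turned from -0.0092 to 0.014 with a pseudocount of 0.1, where the exact permutation p was 0.4. With a pseudocount of 0.01 the log2 fold change of the target was -14.89 (limma adjusted p = 0.0644). Small differences that were never called changed sign in the marker genes Tagln (0.00078 and 0.0011 with pseudocounts of 0.1 and 0.01, 0.038 and 0.028 with median-of-ratios and upper-quartile scaling) and in Sycp3 (-0.011 with equal library totals). Over left-out libraries the log2 fold change ran from -0.062 to 0.105 in Rhox5, from -0.145 to 0.186 in Tagln, from -0.120 to 0.0447 in Csf1r, from -0.0264 to 0.0293 in Sycp3 and from -0.164 to 0.0137 in Eppin. The cause was not tested in any of these. With 3 libraries a group, and with members resting on few fragments, differences in the Rhox4 copies, Rhox6, Rhox9 and Rhox12 were not detectable at this depth.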
